A study of Mus musculus with 12 samples.

Results

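The transcripts of 8 genes that mark neural stem and progenitor cells (Nes, Vim, Sox1, Sox2, Sox3, Msi1, Prom1 and Hmga2) were followed in RNAseq of infected mouse brainstem progenitors. The members were the rows whose Ensembl identifier maps to one of these symbols, 8 of the 54532 genes counted in each sample, and each symbol had 1 identifier. All 8 passed the filter on low counts in every comparison. The cells came from C57BL/6 pups, aged 3 to 5 days by the labels, that carried Nestin TVA and were homozygous for floxed p53 (p53 fl/fl by the study's methods), and were grown as neurospheres in serum-free medium with EGF and FGF2. They received RCAS vectors for human ACVR1, either wild type (ACVR1 WT) or the R206H form (ACVR1 R206H), each alone or together with H3.1K27M, a histone H3.1 with methionine in place of lysine 27. Each of the 4 vector combinations had 3 samples. All 12 samples shared the Nestin TVA transgene and the floxed p53 alleles, the labels of these samples name no Cre, and there was no uninfected group.

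RCAS is an avian retroviral vector that enters mouse cells only through TVA, an avian receptor, which here is driven by regulatory sequence of the nestin gene, so nestin-expressing cells are the ones that take up virus. The endogenous Nes gene is a marker of such cells. Nestin and vimentin are intermediate filament proteins that assemble together in radial glia and neural stem cells. Sox1, Sox2 and Sox3 form the SoxB1 group of transcription factors, which hold neural progenitors in an undifferentiated state. Msi1 encodes an RNA-binding protein of neural progenitors, Prom1 the membrane glycoprotein CD133, and Hmga2 a chromatin protein that is abundant in young neural stem cells and declines with age.

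Totals of counts assigned to genes ran from 19315020 to 26456257 per sample, with a median of 20994196. The ACVR1 labels were checked by Id1, which the paper gives as a target of BMP signalling, the pathway of ACVR1. In CPM (counts scaled to a common library total), Id1 read between 11.9 and 21.9 with ACVR1 WT and 32.4 and 40.3 with ACVR1 R206H. With H3.1K27M added it read between 12.4 and 13.8 and between 96.3 and 118. No check of the H3.1K27M label was made. Acvr1 read between 46.4 and 53.5 CPM in the ACVR1 WT samples and 81.9 and 114 with ACVR1 R206H. With H3.1K27M it read between 162 and 364 with ACVR1 WT and 561 and 1057 with ACVR1 R206H. Whether these reads came from the mouse gene or from the human ACVR1 of the vector was not tested. They were higher with H3.1K27M than without it, and with H3.1K27M they were higher in ACVR1 R206H than in ACVR1 WT, by a log2 fold change of 1.91 (edgeR adjusted p = 0.00045). Without H3.1K27M that log2 fold change was 0.89 (edgeR adjusted p = 0.94, DESeq2 adjusted p = 0.00025). The part of H3.1K27M or of the R206H change in a difference therefore cannot be told apart from that of whatever raised these reads. The spread between the 3 ACVR1 WT samples was wider than in the other groups: the median SD of log2 CPM over 13878 genes was 0.20, against 0.08 with H3.1K27M added, 0.09 with ACVR1 R206H and 0.07 with ACVR1 R206H and H3.1K27M. The study's methods count in vitro samples as cell lines from separate litters, but the labels do not tie these 12 samples to cultures or litters, so the p values measure the spread between these samples, which may be technical. In bulk RNA, fewer cells of a type and less RNA per cell cannot be told apart.

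The coordinates are those of mm10. Nes lies at chr3:87971078-87980451 on the plus strand, Vim at chr2:13573927-13582826 (plus), Sox1 at chr8:12395295-12400126 (plus), Sox2 at chr3:34650405-34652461 (plus), Sox3 at chrX:60891366-60893430 (minus), Msi1 at chr5:115429599-115455698 (plus), Prom1 at chr5:43993620-44102032 (minus) and Hmga2 at chr10:120361275-120476469 (minus). All 8 are annotated as protein coding, and the 3 SoxB1 genes each have a single exon. Counting ignored strand and left out ambiguous reads. Reads over exon stretches that a member shares with another gene were therefore counted for neither gene. Prom1 shares 5.91% of its exon length with the antisense gene Gm16401, and Hmga2 shares 2.07% with the antisense gene 1700006J14Rik. Outside the shared stretches these antisense genes had at most 0.678 and 0.427 CPM. Sox1 shares 1.78% with the microRNA gene Gm25239 on the same strand. Sox2 sits inside the gene of the long RNA Sox2ot, with no exon bases in common.

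RefSeq start sites on GRCm38.p6 were matched for 6 of the 8 members, and Sox3 and Msi1 were not matched. The 250 bases before the start are shown for Nes, whose regulatory sequence the TVA transgene borrows (whether it includes this window is not given in the sources used here), for Hmga2, which had the widest spread among the ACVR1 WT samples, and for Sox2, which differed by H3.1K27M in both ACVR1 backgrounds. Capitals mark CCAAT, or ATTGG on the other strand. The windows are chr3:87970843-87971092 (plus) for Nes, chr10:120476470-120476719 (minus) for Hmga2 and chr3:34649745-34649994 (plus) for Sox2, each written 5′ to 3′ along its gene.
Nes: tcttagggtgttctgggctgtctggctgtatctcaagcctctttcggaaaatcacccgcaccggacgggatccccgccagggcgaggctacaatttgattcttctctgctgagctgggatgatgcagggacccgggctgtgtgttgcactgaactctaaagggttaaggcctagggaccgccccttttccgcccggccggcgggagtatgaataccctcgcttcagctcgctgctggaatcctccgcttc
Hmga2: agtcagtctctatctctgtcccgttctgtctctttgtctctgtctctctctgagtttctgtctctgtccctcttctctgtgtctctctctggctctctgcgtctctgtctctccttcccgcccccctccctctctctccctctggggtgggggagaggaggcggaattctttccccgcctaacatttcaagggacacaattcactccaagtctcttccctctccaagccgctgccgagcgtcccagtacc
Sox2: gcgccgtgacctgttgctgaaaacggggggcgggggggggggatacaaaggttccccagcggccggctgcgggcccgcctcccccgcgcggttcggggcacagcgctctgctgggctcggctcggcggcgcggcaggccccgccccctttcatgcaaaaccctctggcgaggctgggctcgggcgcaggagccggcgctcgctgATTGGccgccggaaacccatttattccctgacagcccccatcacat
The Sox2 window held 27 CG pairs and the Sox1 window 29, against 15 for Nes, 8 for Hmga2, 8 for Vim and a median of 6 over 32851 RefSeq promoter windows. CCAAT on either strand was found once in the Sox2 window and once in that of Sox1, 2 times in that of Vim, once at 1 of the 2 Prom1 starts, and not in those of Nes and Hmga2. It stood in 33.8% of all windows, so its presence sets no member apart. TATAAA, present in 12.4%, was found before Vim alone among the members. ATGCAAAT, TTTCCCGC or TTTGGCGC, TTTGAA and GGCGCC, present in 1.6%, 1.3%, 16% and 9.59% of the windows, had no match on either strand in the member windows.

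Per kilobase of exon, Vim was the most abundant of the 8 transcripts and Sox2 came next in every group. In ACVR1 R206H samples, where replicates lay close together, the levels were 447 ± 12.2 CPM per kilobase for Vim (SD, n = 3), 173 ± 5.02 for Sox2, 39.6 ± 3.18 for Nes, 37.6 ± 3.28 for Sox3, 20.3 ± 0.761 for Msi1, 7.34 ± 0.579 for Sox1, 5.35 ± 0.754 for Hmga2 and 2.63 ± 0.309 for Prom1. Nes and Sox3 were neighbours in this order that did not differ beyond their spread. In the ACVR1 WT group the means stood the other way, at 31.8 ± 27.8 for Nes and 43.6 ± 8.85 for Sox3, again within the spread. With ACVR1 R206H and H3.1K27M, Nes read 42.2 ± 1.17 and Sox3 17.5 ± 0.925 CPM per kilobase, which put Sox3 below Msi1 at 19.9 ± 1.08. In that group Hmga2, at 7.57 ± 0.120, also stood above Sox1, at 6.40 ± 0.151. Every member was detected in every sample, the lowest value being 100 counts for Hmga2 in an ACVR1 WT sample.

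**Figure D1:**
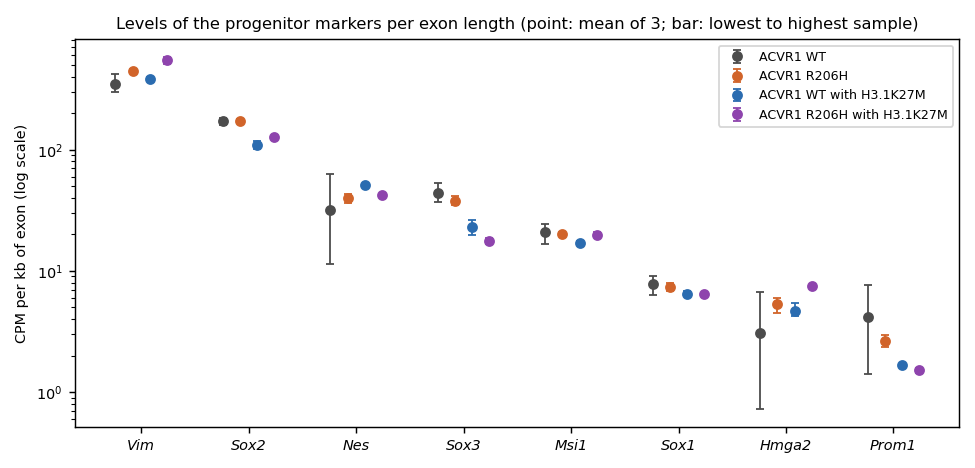
Mean CPM per kilobase of exon (log axis) for the 8 markers in the 4 groups, with bars from the lowest to the highest of the 3 samples. Vim lies above all other markers in every group, and the widest bars are those of Nes, Hmga2 and Prom1 in the ACVR1 WT group.

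The 3 ACVR1 WT samples differed from each other in 3 of the 8 markers far more than in the other 5. Nes read 407, 132 and 73.0 CPM in replicates 1, 2 and 3, a 5.58-fold range, where the other 3 groups together spanned 235 to 335 CPM. Hmga2 read 45.7, 11.8 and 4.89 CPM in the same samples, a 9.34-fold range. Prom1 ran the other way, with 10.1, 25.4 and 54.4 CPM. The SD of log2 CPM was 1.62 for Hmga2, 1.26 for Nes and 1.22 for Prom1, at percentiles of 98.9, 97.2 and 96.9 among 13878 genes in that group. Sox2 was among the steadier genes, with 328, 377 and 366 CPM, an SD of 0.10 and a percentile of 24.9, and Vim, Sox1, Sox3 and Msi1 had SDs between 0.26 and 0.28. In the other 3 groups no member had an SD above 0.21.

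Markers of cycling cells, astrocytes, neurons and microglia moved with Nes, Hmga2 and Prom1 in these 3 samples. All 5 proliferation markers were highest in ACVR1 WT replicate 1 and lowest in replicate 3, as Nes and Hmga2 were: Mki67, which marks cycling cells, read 339, 92.8 and 31.3 CPM, and the 5 markers summed to between 194 and 1429 CPM, against 607 to 1040 CPM over the other 3 groups. All 6 astrocyte markers were lowest in replicate 1, as Prom1 was, and summed to between 3601 and 10900 CPM, against 3579 to 6644 CPM elsewhere. Gfap, the intermediate filament of astrocytes, read 346, 1419 and 2674 CPM. None of these 11 markers was at 0. Of the 6 neuron markers 4 were lowest in replicate 1, and they summed to between 27.3 and 164 CPM, against 38.2 to 52.1 CPM elsewhere. Dcx, a marker of young neurons, read 10.7, 83.4 and 119 CPM, in the order of Prom1. Of the 6 microglia markers 5 were lowest in replicate 1, and they summed to between 3.84 and 18.6 CPM, against 5.85 to 7.51 CPM with ACVR1 R206H and 1.27 to 2.99 CPM in the 2 groups with H3.1K27M. Endothelial markers summed to at most 15.6 CPM in any sample. The part of all these markers in the spread of the members was not tested.

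**Figure D2:**
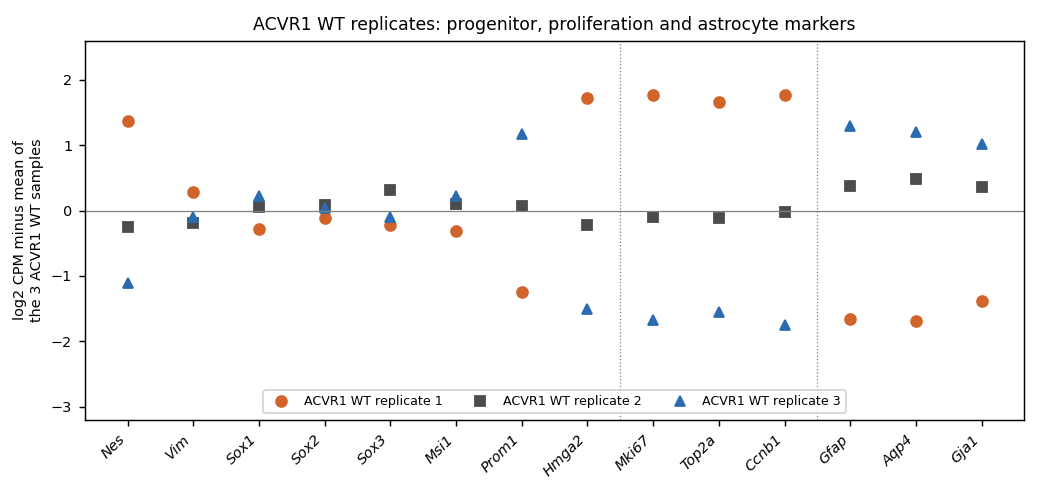
log2 CPM of each of the 3 ACVR1 WT samples minus their mean, for the 8 progenitor markers, 3 proliferation markers (Mki67, Top2a, Ccnb1) and 3 astrocyte genes (Gfap, Aqp4, Gja1). Nes and Hmga2 are ordered as the proliferation markers, Prom1 as the astrocyte genes, and the points of Sox2 lie close to 0.

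Genes with the most similar profile over the 12 samples were ranked by the root mean square difference of centred log2 CPM, among 10155 genes. For Nes they were Kifc1 at 0.10, Kifc5b at 0.11 and Ckap2 at 0.11, where the SD of Nes itself was 0.67. The SD of Nes was 1.26 within the ACVR1 WT group and at most 0.12 within each other group. The ranking for Nes thus weighs the ACVR1 WT samples most. Kifc1 encodes a mitotic kinesin and Ckap2 a protein of the mitotic spindle. Kifc1 and Kifc5b are close copies of each other, so the split of reads between them is uncertain. Hmga2, whose group means of log2 CPM had the widest range among the members (1.89, with ACVR1 WT the lowest group), had no gene as close: Papln lay at 0.27, Tubb6 at 0.32 and Adamtsl3 at 0.34.

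ACVR1 R206H was compared with ACVR1 WT, first without and then with H3.1K27M. Without H3.1K27M, 0 of the 8 markers and 0% of 15066 genes passed an adjusted p of 0.05 in edgeR's quasi-likelihood test, with 534 genes at an unadjusted p under 0.05, and DESeq2 called 0 of the 8 and 26 genes (0.173%). With H3.1K27M, 6 of the 8 passed, 4 higher and 2 lower in ACVR1 R206H, where 20.3% of 15672 genes passed (11.4% higher and 8.95% lower). H3.1K27M was then compared with its absence. With ACVR1 WT, 2 of the 8 passed, both lower, where 23% of 15385 genes passed and 10.4% passed as lower. With ACVR1 R206H, 6 of the 8 passed, 2 higher and 4 lower, where 56.5% of 15482 genes passed (29.1% higher and 27.4% lower), so that count lies near the background. With all 12 samples in 1 fit, which gives every group the spread of the ACVR1 WT samples as well, the last 3 counts were 1 (Vim), 4 (Sox2, Sox3, Msi1 and Prom1) and 2 (Sox2 and Sox3), where 2.85%, 41% and 38.6% of 15445 genes passed. The groups did not overlap for 1, 7, 2 and 6 of the 8 in these 4 comparisons, and for 9.61%, 36.8%, 45.2% and 63.1% of all genes tested. The median log2 fold change of the 8 was -0.02, 0.10, -0.27 and -0.10 in the 4 comparisons, beside -0.01, 0.0014, -0.02 and -0.0018 over all genes tested.

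The call in the ACVR1 WT group turned on its replicate 1. Without that sample, 4 of the 8 markers passed for ACVR1 R206H without H3.1K27M, where 23.1% of genes did: Nes (log2 fold change 1.33, edgeR adjusted p = 0.0057), Hmga2 (2.14, edgeR adjusted p = 0.0041) and Vim (0.54, edgeR adjusted p = 0.0057) were higher and Prom1 (-1.07, edgeR adjusted p = 0.026) was lower. Under the same omission all 8 markers passed in the comparison of H3.1K27M with ACVR1 WT, where 52.6% of genes passed.

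**Figure D3:**
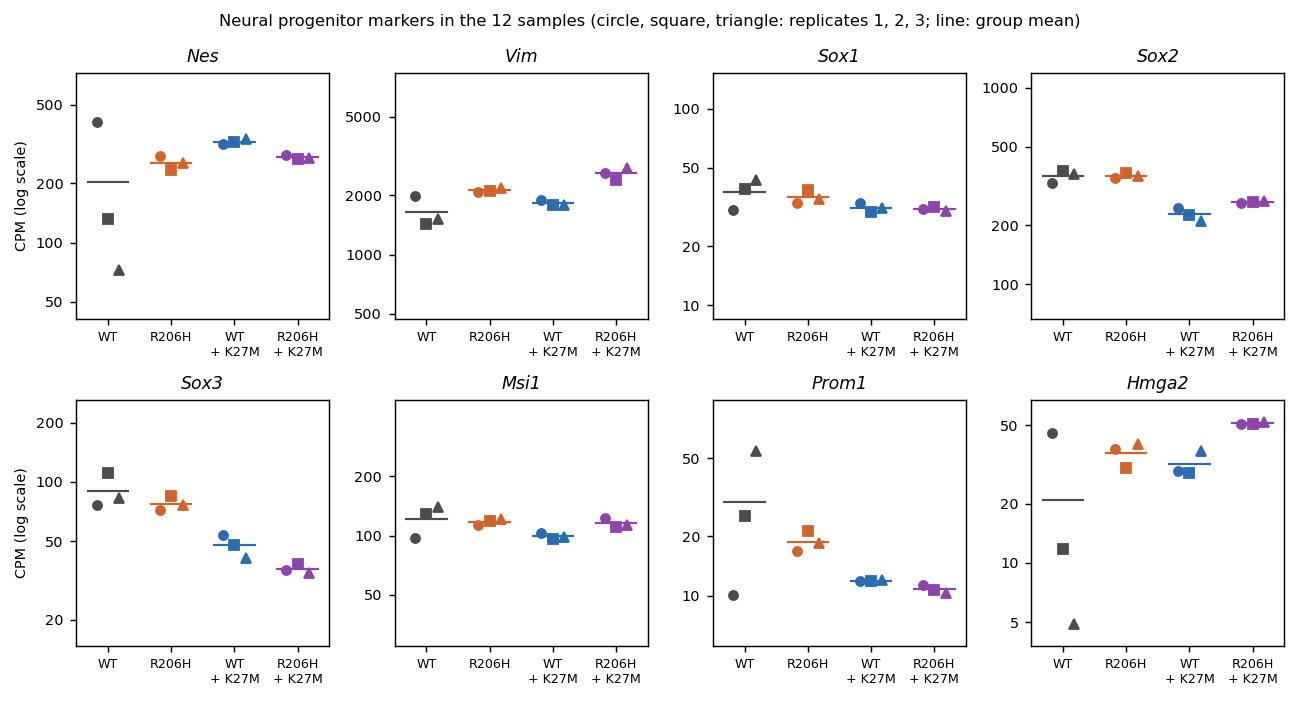
CPM of the 8 markers on a log axis in the 12 samples, 3 per group, with a line at each group mean. Each panel spans the same fold range, so the wide ACVR1 WT columns of Nes, Prom1 and Hmga2 and the lower Sox2 and Sox3 values with H3.1K27M can be compared by eye.

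Among the filament genes, Vim was highest where ACVR1 R206H and H3.1K27M were combined. It read 1995, 1428 and 1521 CPM with ACVR1 WT, 2072, 2102 and 2184 with ACVR1 R206H, 1897, 1796 and 1779 with ACVR1 WT and H3.1K27M, and 2602, 2403 and 2760 with ACVR1 R206H and H3.1K27M. Every R206H value exceeded every WT value on either side of the H3.1K27M divide, and only the ACVR1 WT groups overlapped each other. With H3.1K27M the log2 fold change was 0.51 (SE 0.05, edgeR adjusted p = 1.4e-05), a 1.43-fold difference. Without it the value was 0.37 (SE 0.16, edgeR adjusted p = 0.94), although the groups did not overlap. Within ACVR1 R206H, Vim was higher with H3.1K27M by 0.30 (SE 0.05, edgeR adjusted p = 0.00051), and within ACVR1 WT the difference was 0.16 (95% interval -0.23 to 0.54).

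Nes read 317, 325 and 335 CPM with ACVR1 WT and H3.1K27M and 279, 264 and 269 with ACVR1 R206H and H3.1K27M. The 2 groups did not overlap, and Nes was lower with ACVR1 R206H by a log2 fold change of -0.26 (SE 0.04, edgeR adjusted p = 0.00044), the opposite direction to Vim. The ACVR1 R206H samples without H3.1K27M read 275, 235 and 253 CPM and overlapped those with it. That difference was 0.10 (95% interval -0.02 to 0.22, edgeR adjusted p = 0.15), and it passed only when ACVR1 R206H replicate 1 was left out (0.16, edgeR adjusted p = 0.021). Against ACVR1 WT, whose samples spanned all of these values, the log2 fold change of Nes was 0.33 for ACVR1 R206H (95% interval -1.09 to 1.74) and 0.69 for H3.1K27M (95% interval -0.71 to 2.09). Both intervals run from below 0 to far above it, so no direction of Nes could be given in those comparisons.

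Synm and Gfap encode filament proteins that assemble with nestin and vimentin. Synm, which encodes synemin, read between 3.42 and 5.60 CPM without and 11.4 and 15.6 CPM with H3.1K27M, and rose with ACVR1 WT by 1.72 (edgeR adjusted p = 0.0039) and with ACVR1 R206H by 1.43 (edgeR adjusted p = 2.4e-06) on the log2 scale. Gfap, named above, fell with a log2 fold change of -2.44 (SE 0.66, edgeR adjusted p = 0.043) and -1.17 (SE 0.09, edgeR adjusted p = 4.9e-07) in the same comparisons. With H3.1K27M present, Gfap was higher in ACVR1 R206H by 0.75 (edgeR adjusted p = 4.7e-07). Of the 9 other genes of type III and IV intermediate filaments, 6 or 7 were tested, and 3 of 6 differed by H3.1K27M with ACVR1 WT, where 23% of all genes did, and 4 of 7 with ACVR1 R206H, where 56.5% did, which is near the background.

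Sox2 was lower with H3.1K27M in both ACVR1 backgrounds. It read 328, 377 and 366 CPM with ACVR1 WT and 346, 367 and 355 with ACVR1 R206H. With H3.1K27M it read 244, 226 and 210 CPM in the first and 261, 263 and 264 in the second. All 6 samples with H3.1K27M lay below all 6 without it. The log2 fold change was -0.64 with ACVR1 WT (SE 0.09, edgeR adjusted p = 0.0062) and -0.43 with ACVR1 R206H (SE 0.04, edgeR adjusted p = 2.2e-06). Within H3.1K27M, ACVR1 R206H exceeded ACVR1 WT by 0.22 (SE 0.05, edgeR adjusted p = 0.0077), while without H3.1K27M the difference was 0.01 (95% interval -0.19 to 0.20).

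Sox3 had the largest loss with H3.1K27M among the SoxB1 genes. It read 76.2, 111 and 82.9 CPM with ACVR1 WT and 54.0, 47.8 and 41.0 once H3.1K27M was added, a log2 fold change of -0.91 (SE 0.17, edgeR adjusted p = 0.014). With ACVR1 R206H it read 71.8, 85.1 and 76.1 CPM without and 35.5, 38.3 and 34.6 with H3.1K27M, a log2 fold change of -1.09 (SE 0.07, edgeR adjusted p = 7.9e-08), to 0.469 of the level without. Neither pair of groups overlapped. With ACVR1 WT the call was lost when H3.1K27M replicate 2 (edgeR adjusted p = 0.067) or replicate 3 (edgeR adjusted p = 0.065) was left out. Within H3.1K27M, Sox3 was lower in ACVR1 R206H by -0.39 (SE 0.09, edgeR adjusted p = 0.0060), opposite to Sox2. Sox3 is X-linked, and both Xist, expressed from the inactive X of female cells, and the Y-linked Ddx3y were present in all 12 samples, at 483 to 880 and 24.4 to 40.6 CPM. With ACVR1 R206H, Xist was lower (-0.46, edgeR adjusted p = 0.0016) and Ddx3y higher (0.53, edgeR adjusted p = 7.7e-05) when H3.1K27M was added, and the part of the sex of the cells in the Sox3 values was not tested.

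Sox1 differed less than its 2 relatives. It read 30.7, 38.8 and 43.5 CPM with ACVR1 WT, 33.1, 38.5 and 34.8 with ACVR1 R206H, 33.0, 29.7 and 31.1 with ACVR1 WT and H3.1K27M, and 31.0, 31.7 and 30.2 with ACVR1 R206H and H3.1K27M. The last of these groups lay below the ACVR1 R206H group, with a log2 fold change of -0.18 (SE 0.06, edgeR adjusted p = 0.029), which DESeq2 did not call (adjusted p = 0.053). The edgeR call was also lost without ACVR1 R206H replicate 2 (adjusted p = 0.10) and without replicate 1 (adjusted p = 0.063) or 3 (adjusted p = 0.090) of the group with both constructs. The other log2 fold changes of Sox1 were -0.08 for ACVR1 R206H without H3.1K27M (95% interval -0.42 to 0.26), -0.25 for H3.1K27M with ACVR1 WT (95% interval -0.58 to 0.07), and -0.01 for ACVR1 R206H with H3.1K27M (95% interval -0.14 to 0.11). The RNAs that overlap Sox1 and Sox2 did not share a direction. Sox2ot fell with H3.1K27M by -0.71 (edgeR adjusted p = 0.019) and -0.82 (edgeR adjusted p = 2.4e-06) on the log2 scale with ACVR1 WT and ACVR1 R206H, as Sox2 did. Sox1ot, which had 4.98 to 10.3 CPM without and 18.5 to 24.6 CPM with H3.1K27M, rose by 1.29 (edgeR adjusted p = 0.019) and 1.49 (edgeR adjusted p = 4.9e-08).

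Of the 16 other Sox genes, 11 were tested by H3.1K27M in each background. With ACVR1 WT 5 were lower and 1 higher, where 10.4% of all genes were lower and 12.6% higher. With ACVR1 R206H 5 were lower and 5 higher, where 27.4% and 29.1% of all genes were. The 5 that were lower were the same in both: Sox4, Sox6, Sox8, Sox9 and Sox21. These 2 comparisons share no samples, but the share of all genes lower in both was not taken. The overlap therefore has no background to be read against. Sox21, a SoxB2 factor that opposes SoxB1 activity, changed by -0.92 (edgeR adjusted p = 0.016) and -0.70 (edgeR adjusted p = 4.6e-07). Sox9, which acts in neural stem cells and glia, changed by -0.84 (edgeR adjusted p = 0.025) and -0.54 (edgeR adjusted p = 2.1e-06). Sox10, a factor of the oligodendrocyte lineage, was higher with ACVR1 R206H by 1.02 (edgeR adjusted p = 3.1e-07), and with ACVR1 WT its value was 0.36 (edgeR adjusted p = 0.63). Sox7, at most 1.27 CPM on average in any group, was higher in both. Between ACVR1 R206H and ACVR1 WT with H3.1K27M, Sox21 (0.21) and Sox9 (0.17) were higher, and Sox10 (-0.47), Sox8 (-0.36) and Sox11 (-0.24) were lower.

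**Figure D4:**
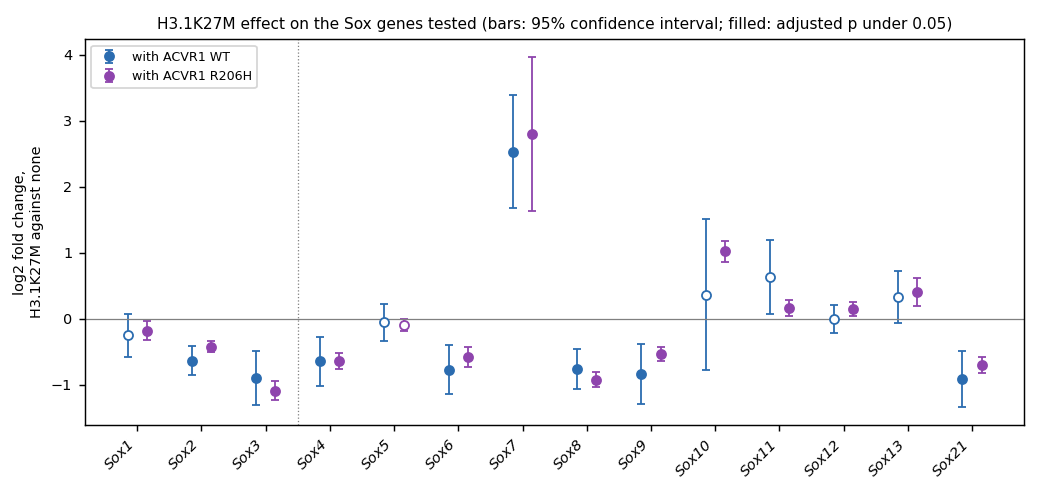
log2 fold change of H3.1K27M against its absence for Sox1, Sox2, Sox3 and the 11 other Sox genes tested, with ACVR1 WT (blue) and with ACVR1 R206H (purple). Bars are 95% confidence intervals and filled points passed the test. Sox2, Sox3, Sox4, Sox6, Sox8, Sox9 and Sox21 lie below 0 with both.

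Hmga2 was higher with ACVR1 R206H where H3.1K27M was also expressed. It read 29.5, 28.7 and 37.1 CPM with ACVR1 WT and H3.1K27M and 50.6, 50.9 and 52.2 with ACVR1 R206H and H3.1K27M. The log2 fold change was 0.69 (SE 0.08, edgeR adjusted p = 7.0e-05), a 1.62-fold difference. ACVR1 R206H alone gave 38.0, 30.5 and 40.3 CPM, and the group with H3.1K27M added was higher by 0.51 (SE 0.08, edgeR adjusted p = 0.00026). The group with both constructs thus lay above the other 2 of these groups without overlap, and those 2 overlapped each other. Against the ACVR1 WT group, of which replicate 1 (45.7 CPM) was higher than every sample of these 2 groups, the log2 fold change was 0.81 for ACVR1 R206H (95% interval -0.96 to 2.58) and 0.62 for H3.1K27M (95% interval -1.12 to 2.36). Hmga1, the paralogue of Hmga2, went the other way with H3.1K27M: it changed by -1.51 with ACVR1 R206H (SE 0.07, edgeR adjusted p = 1.1e-08), and with ACVR1 WT its value was -1.22 (edgeR adjusted p = 0.068). Lin28b, which blocks the let-7 microRNAs that repress Hmga2, had at most 0.238 CPM in any sample. Igf2bp3 was lower with H3.1K27M in ACVR1 R206H (-0.47, edgeR adjusted p = 0.00019). Of the 7 genes of this axis 3 were tested, and with H3.1K27M 0 of 3 passed with ACVR1 WT and 3 of 3 were lower with ACVR1 R206H, where 27.4% of all genes were lower.

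Msi1 was the least variable marker across groups after Sox1. It read 96.9, 129 and 140 CPM with ACVR1 WT, 113, 119 and 121 with ACVR1 R206H, 103, 96.0 and 98.6 with ACVR1 WT and H3.1K27M, and 122, 110 and 114 with ACVR1 R206H and H3.1K27M. Within H3.1K27M it was higher with ACVR1 R206H by 0.22 (SE 0.05, edgeR adjusted p = 0.0054), and the 2 groups did not overlap. The fit of all 12 samples did not call this difference (edgeR adjusted p = 0.39). H3.1K27M with ACVR1 R206H gave -0.02 (95% interval -0.12 to 0.09), and with ACVR1 WT -0.29 (95% interval -0.62 to 0.04), which passed only in the fit of all 12 samples (edgeR adjusted p = 0.048) and without ACVR1 WT replicate 1 (edgeR adjusted p = 0.00059). Its paralogue Msi2 was lower with H3.1K27M in both backgrounds, by -0.42 (edgeR adjusted p = 0.0068) and -0.28 (edgeR adjusted p = 6.9e-05).

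Prom1 was lower with H3.1K27M in ACVR1 R206H cells. It read 16.8, 21.2 and 18.6 CPM without and 11.4, 10.7 and 10.4 CPM with H3.1K27M, a log2 fold change of -0.79 (SE 0.09, edgeR adjusted p = 2.0e-05). ACVR1 WT with H3.1K27M gave 11.9 CPM in replicates 1 and 2 and 11.96 CPM in replicate 3. That group lay above the ACVR1 R206H group with H3.1K27M without overlap, but the log2 fold change of -0.14 did not pass (95% interval -0.31 to 0.03, edgeR adjusted p = 0.24). Against the 3 unequal ACVR1 WT samples the change with H3.1K27M was -1.31 (95% interval -2.63 to 0.0020, edgeR adjusted p = 0.13), and DESeq2 (adjusted p = 0.037) and the edgeR fit of all 12 samples (adjusted p = 0.029) called it. Leaving out 1 sample at a time moved this change between -1.73 and -0.56. The fit of all 12 samples did not call the -0.79 with ACVR1 R206H (edgeR adjusted p = 0.17).

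**Figure D5:**
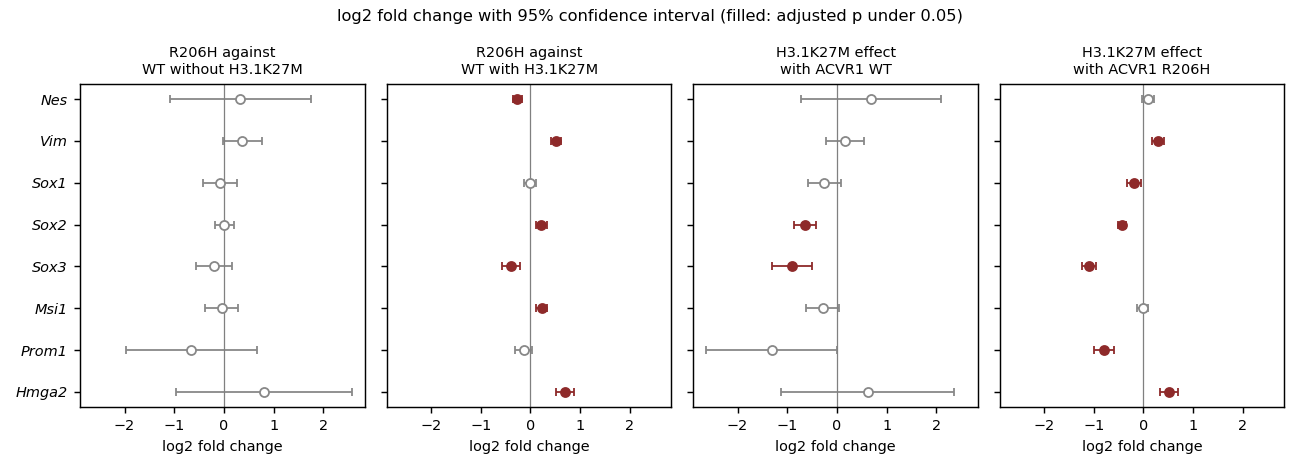
log2 fold change with its 95% confidence interval for the 8 markers in the 4 comparisons. Filled points passed the test. Intervals of Nes, Prom1 and Hmga2 are widest in the comparisons that use the ACVR1 WT group, and Sox2 and Sox3 lie below 0 in both H3.1K27M panels.

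Whether the ACVR1 R206H difference itself changed with H3.1K27M was tested as an interaction on all 12 samples. None of the 8 markers passed edgeR's test, where 11 of 15445 genes (0.0712%) did, with 1183 genes at an unadjusted p under 0.05, and DESeq2 called 0 of the 8 and 96 genes (0.622%). The smallest of the 8 p values was that of Sox2, with an interaction of 0.21 (95% interval 0.01 to 0.42, edgeR adjusted p = 0.64). Without ACVR1 WT replicate 1, 5 of the 8 passed, where 26.6% of genes did: Nes (-1.58), Hmga2 (-1.43), Prom1 (0.95), Msi1 (0.42) and Sox2 (0.28).

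The other stem cell and radial glia genes also went both ways. Of 20 genes, all tested, H3.1K27M with ACVR1 WT gave 4 higher and 6 lower, where 12.6% of all genes were higher and 10.4% lower. With ACVR1 R206H 7 were higher and 7 lower, near the 29.1% and 27.4% of all genes. The share of all genes with the same call in both comparisons was not taken. The 4 and the 6 of the first comparison all had the same call in the second. Among them Nr2e1, a nuclear receptor that maintains neural stem cells, rose by 2.36 (edgeR adjusted p = 0.00097) and 2.12 (edgeR adjusted p = 5.0e-09), and Lhx2, a homeobox factor of neural progenitors, by 1.98 (edgeR adjusted p = 0.0057) and 1.81 (edgeR adjusted p = 7.1e-06). Hes5, a Notch effector, changed by -2.92 (edgeR adjusted p = 0.0016) and -2.91 (edgeR adjusted p = 8.6e-10), and Pax6, a transcription factor of radial glia, by -1.43 (edgeR adjusted p = 0.0045) and -0.82 (edgeR adjusted p = 6.0e-07). Between ACVR1 R206H and ACVR1 WT with H3.1K27M, 7 were higher and 2 lower, where 11.4% and 8.95% of all genes were, with Pax6 the largest rise (0.59, edgeR adjusted p = 1.5e-05). The median log2 fold change of the 20 genes lay between 0.01 and 0.08 in the 4 comparisons.

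The proliferation markers, and some astrocyte markers in both directions, also differed where the ACVR1 WT group without H3.1K27M was not in the comparison. With ACVR1 R206H, all 5 proliferation markers were lower with H3.1K27M, where 27.4% of all genes were, while the log2 fold change of Nes was 0.10. With H3.1K27M in both groups, 4 of the 5 were lower in ACVR1 R206H, as Nes was, where 8.95% of all genes were lower. Their summed level was 814 to 1040 CPM with ACVR1 R206H, 800 to 855 with ACVR1 WT and H3.1K27M and 607 to 710 with both. The 6 astrocyte markers summed to 5798 to 6644, 3579 to 3717 and 4370 to 4390 CPM in the same groups, but they did not share a direction. With ACVR1 R206H, 1 was higher and 3 were lower with H3.1K27M, beside 29.1% and 27.4% of all genes. With H3.1K27M in both groups, 2 were higher and 1 lower in ACVR1 R206H, beside 11.4% and 8.95%.

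Other lists of cell type markers moved in the same comparisons as the members. Of the 6 microglia markers, 3 of 4 tested were lower with H3.1K27M in ACVR1 WT and 2 of 3 in ACVR1 R206H, beside 10.4% and 27.4% of all genes. C1qa, a complement gene of microglia, read 1.09, 5.14 and 8.75 CPM with ACVR1 WT and 2.65, 2.59 and 2.23 with ACVR1 R206H, and at most 0.0396 CPM in the 6 samples with H3.1K27M, where Sox2 and Sox3 were lower. P2ry12, also of microglia, went the other way with ACVR1 R206H (1.01, edgeR adjusted p = 0.0050). Of the mural and fibroblast markers, 3 of 5 tested were higher with H3.1K27M in ACVR1 WT and 4 of 4 in ACVR1 R206H, beside 12.6% and 29.1% of all genes, with sums of 9.38 to 15.4 CPM without and 15.7 to 31.8 CPM with it. For ACVR1 R206H with H3.1K27M, 5 of 7 oligodendrocyte lineage markers were lower, beside 8.95% of all genes. They summed to 3427 to 3606 CPM against 3532 to 4155. With H3.1K27M in ACVR1 R206H, 4 of these 7 were higher and 2 lower, beside 29.1% and 27.4%. In ACVR1 WT 1 was higher and 1 lower, beside 12.6% and 10.4%. Samples without H3.1K27M summed to 2310 to 3277 CPM with ACVR1 WT and 2781 to 2985 with ACVR1 R206H. For ACVR1 R206H with H3.1K27M, 3 of 6 neuron markers were higher, beside 11.4% of all genes. They summed to 50.2 to 52.1 CPM against 38.2 to 42.2. With H3.1K27M in ACVR1 R206H, 4 of these 6 were higher and 1 lower, and in ACVR1 WT 1 was higher and 1 lower. Of the ependymal markers, 1 of 4 tested was higher with H3.1K27M in ACVR1 WT and 2 of 4 in ACVR1 R206H, beside 12.6% and 29.1%. They summed to 33.0 to 59.1 CPM without and 69.5 to 84.3 CPM with H3.1K27M. The part of the proliferation and cell type markers in the differences of the members was not tested.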

How the data were processed

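RNAseq counts of 12 samples, 3 in each of 4 groups, were analysed. Per the labels and the methods, the authors aligned reads to mm10 (GRCm38) with STAR 2.6.0b-1 and counted them per Ensembl gene with HTSeq. The count used union mode without strand and a minimum alignment quality of 10, and left out ambiguous reads and reads with several matches. The submitters' processing notes give the STAR version. The deposited values are raw counts per gene, neither normalized nor pooled. Positions and exon lengths came from GENCODE M21 and promoter windows from RefSeq on GRCm38.p6.

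The 4 pairs of groups were compared with edgeR 4.0.16 (R 4.3.3, limma 3.58.1), by the quasi-likelihood F test scaled by TMM. Each fit held the 6 samples of 1 pair and the genes whose normalized count averaged 10 or more. The interaction used all 12 samples. Tests were two-sided, with Benjamini-Hochberg adjustment over all genes tested and a threshold of 0.05. Levels are CPM on TMM-scaled totals, divided by exon length where genes are compared. SDs between replicates were taken over genes with a mean of at least 1 CPM and similar profiles over genes of at least 10 CPM. Both the depth and the 3 replicates per group limit the precision, and neither was varied here against the other.

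DESeq2 1.42.0, its size factors, no filter, the replicate number as a block, 1 fit of all 12 samples and leaving out each sample in turn were alternatives. Both tools were tested on simulated data first. All 8 members are named throughout. From other lists, counts are given with at most the 3 called genes of largest change in each direction, with a few partners and paralogues of members. The members and lists were chosen with earlier results of these data known.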

Additional observations from a re-analysis of the deposited data

How the results depend on the processing

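Over the 8 markers and 5 contrasts, 429 of 480 alternative values kept their direction and their side of the threshold, 19 newly passed, 15 no longer passed and 17 changed sign. Median-of-ratios size factors and no filter on low counts changed no marker's call. One fit of all 12 samples called 1 marker in place of 6 for ACVR1 R206H with H3.1K27M (Vim), 4 in place of 2 for H3.1K27M with ACVR1 WT and 2 in place of 6 for H3.1K27M with ACVR1 R206H (Sox2 and Sox3). It also turned Sox2 for ACVR1 R206H without H3.1K27M to -0.0037.

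Leaving out 1 sample at a time, the markers called ranged from 0 to 4 for ACVR1 R206H without H3.1K27M, stayed at 6 with H3.1K27M, and ranged from 1 to 8 and 5 to 7 for H3.1K27M with ACVR1 WT and ACVR1 R206H, and from 0 to 5 for the interaction. In the same order, the share of all genes called ran from 0% to 23.1% and from 12.3% to 19% for ACVR1 R206H. It ran from 6.77% to 52.6% and 49.5% to 53.7% for H3.1K27M, and from 0.0194% to 26.6% for the interaction. The log2 fold changes that changed sign, none of them past the threshold in the fit with all samples, ranged for ACVR1 R206H without H3.1K27M from -0.075 to 1.33 (Nes), -0.049 to 0.043 (Sox2), -0.20 to 0.039 (Sox1), -0.18 to 0.066 (Msi1) and -1.07 to 0.10 (Prom1), and with H3.1K27M from -0.053 to 0.028 (Sox1). For H3.1K27M with ACVR1 R206H, Msi1 ranged from -0.065 to 0.015. For the interaction the ranges were -0.013 to 0.24 (Vim), -0.047 to 0.20 (Sox1), -0.23 to 0.95 (Prom1) and -1.43 to 0.36 (Hmga2). For H3.1K27M with ACVR1 WT, some values moved widely without a change of sign. Nes ranged from 0.29 to 1.68, Hmga2 from 0.16 to 1.95 and Prom1 from -1.73 to -0.56.

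With the replicate block the markers called were 0, 6, 2, 6 and 0 in the 4 comparisons and the interaction, as without it. It moved values by over 1.5 times in contrasts with the ACVR1 WT group, none past the threshold: for ACVR1 R206H without H3.1K27M to 0.70 (Nes), 1.33 (Hmga2), -0.36 (Prom1) and -0.029 (Msi1), for H3.1K27M with ACVR1 WT to 1.07 (Nes) and 1.16 (Hmga2), and for the interaction to -0.32 (Hmga2). Same-numbered samples did not deviate together in every pair: correlations of their deviations from the group means over 15445 genes were 0.31, 0.42 and -0.14 for ACVR1 R206H and ACVR1 WT, and between -0.052 and 0.092 in the other 3 comparisons, so the block was kept out of the reported fits. The depth gave at least 100 counts to each marker in each sample.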
